A study of Drosophila melanogaster with 4 samples.

Results

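The X chromosome of Drosophila melanogaster carried 1140 of the 6152 regions that the authors called enriched for H3K79me3 in their series-wide list. They were taken by chromosome name alone, as every row called enriched on X, and the lists of the 2 ChIP replicates were read in the same way, with 1112 of 5938 and 964 of 5235 regions on X. The chromatin came from whole embryos of the wild-type Oregon-R strain, staged at 14 to 16 hr, and both ChIP samples and both inputs share strain, stage and genotype. A whole embryo mixes cell types and the labels do not separate the sexes, so each value is an average over cells and embryos. All positions are 1-based on FlyBase r5. A region has a first and a last base and a score given by the authors, whose scale is not stated, so scores are set beside each other and never turned into folds. Without read counts in the lists, sequencing depth could not be read from them. Nothing in the labels ties each replicate to its own collection of embryos, so the spread between them may be technical.

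H3K79me3 is a methyl mark on the outer face of the nucleosome core, which the enzyme Grappa, the fly counterpart of Dot1, places, and it is known from the bodies of transcribed genes. The fly X is a rod with its centromere near one end, and the sequence used here runs from the telomere to the centromere-proximal euchromatin. In male flies the single X is transcribed at a raised rate by the dosage compensation machinery: the MSL complex settles on transcribed X genes and acetylates histone H4 at lysine 16. Active gene bodies on the X of males therefore carry a chromatin state that autosomal genes do not have to the same degree.

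Enriched regions covered 5.78 Mb of the 22.4 Mb of the X in replicate 1 and 5.53 Mb in replicate 2, or 25.2% ± 0.776 (SD, n = 2), and 6.38 Mb or 28.5% in the series-wide list. The 4 large autosomal arms, 2L, 2R, 3L and 3R, were covered to 27.3% and 25.9% in the replicates, so the ratio of X to autosomal coverage was 0.947 ± 0.00663 (SD, n = 2). Single autosomal arms ran from 23.9% on 2L to 29.9% on 2R in the mean of the replicates. The X lay within that range, and above 2L in both replicates. Regions numbered 49.6 and 43.0 per Mb in the replicates, beside 49.4 and 43.5 on those arms together. The X thus held as many regions per Mb as the autosomal arms, to within less than the difference between the replicates. An exact sign-flip permutation over 2 replicates cannot give a two-sided p below 0.5, so values are given with their spread and no such test was made.

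The mark reached close to both ends of the X sequence. In the series-wide list 23555 bases at the telomeric end lay before the first region, and 5951 bases at the centromeric end lay after the last. Between these ends coverage changed little from 1 section of 5 Mb to the next and then dropped. In the series-wide list it was 31.4% in the first 5 Mb, 29.2% from 5 to 10 Mb, 28.6% from 10 to 15 Mb and 33.4% from 15 to 20 Mb. In the final 2.42 Mb it was 10.3% there, and 9.00% and 8.94% in the replicates, which had 27.8% and 26.6% over the first 20 Mb. That division at 20 Mb was made after the bins had been seen. The drop lay in the number of regions, which fell to 20.6 and 21.5 per Mb from 53.1 and 45.6 per Mb over the first 20 Mb. Median widths were 3553 and 3308 bp past 20 Mb against 3176 and 3402 bp before, higher in replicate 1 and lower in replicate 2. Their median scores, 1.02 and 0.957, stood beside 0.944 and 0.967 over the first 20 Mb. The centromere-proximal X thus had fewer regions, of similar width and score. A sparse end was not particular to X. In the mean of the replicates, coverage was 4.00% from 22 to 23 Mb on 2L and 1.01% from 23 to 24 Mb on 3L. From 0 to 1 Mb it was 2.47% on 2R but 27.4% on 3R.

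**Figure D1:**
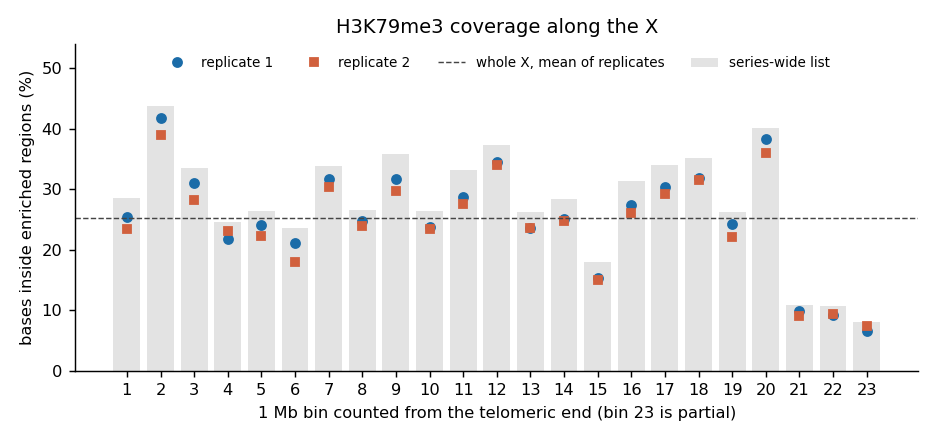
Percent of each 1 Mb bin of the X inside enriched regions, from the telomere (bin 1) to the centromere-proximal end (bin 23, partial), with circles and squares for replicates 1 and 2, bars for the series-wide list and a dashed line at the mean of the replicates for the whole X, 25.2%. Bins 2 and 20 stand highest, at 40.3% and 37.1% in the mean of the replicates, and bins 21 to 23 lowest, at 9.48%, 9.31% and 6.96%.

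Averaged over the replicates, the 22 full bins of 1 Mb had between 9.31% and 40.3% of their bases marked, with a median of 24.7%. The 95 bins of the autosomal arms ran from 1.01% to 49.1% with a median of 27.9%. The densest X bin, from 1 to 2 Mb, had 41.7% in replicate 1 and 39.0% in replicate 2. The next was the bin from 19 to 20 Mb, with 38.2% and 35.9%. Its neighbour from 20 to 21 Mb had 9.86% and 9.11%, so 1 of the fullest bins stood beside 1 of the emptiest. Within the first 20 Mb the lowest bin was that from 14 to 15 Mb, with 15.3% and 15.1%. The dense and the sparse bins named here did not overlap in either replicate.

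At a finer scale the densest places were read in windows of 200 kb on a fixed grid. The densest, from 1800001 to 2000000, was covered to 77.2% in the series-wide list and to 72.5% ± 2.65 (SD, n = 2) in the replicates; it touched 20 regions, including the highest-scoring region of the X. The window from 19200001 to 19400000 followed, with 66.5% in the series-wide list and 62.4% ± 3.74 in the replicates, and held a region of 57587 bp. The windows from 15600001 to 15800000, from 11400001 to 11600000 and from 13000001 to 13200000 had 64.5%, 64.0% and 61.5% in the series-wide list. Dense windows were filled in different ways. The window from 15600001 was touched by 23 regions, the widest of 13781 bp, and that from 11400001 by 14 regions, the widest of 43529 bp.

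The emptiest windows of the X held no region or only 1. From 4600001 to 4800000 and from 21600001 to 21800000, not a base was called in any of the 3 lists. From 19800001 to 20000000 the series-wide list had 1 region of 1031 bp (score 0.519) that neither replicate list held, so the last part of the dense bin from 19 to 20 Mb was itself almost unmarked. That region is narrower than any X region of the replicate lists, where the narrowest had 1301 bp. From 20400001 to 20600000 and from 13800001 to 14000000, 1 region each, of 3289 and 3463 bp, was present in both replicates. Of the 112 windows on X, 9 (8.04%) were covered to under 5%, against 7.90% of the 481 autosomal windows. Windows covered to 50% or more numbered 11 on X (9.82%), against 11.4% on the autosomal arms. Both shares were near those of the autosomal arms.

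Marked and unmarked stretches alternated along the arm. The median distance between neighbouring X regions was 2897 bp in the series-wide list and 3256 and 4263 bp in the replicates, beside 2977, 3299 and 4374 bp on the autosomal arms. Of the 1141 stretches outside regions, 321 (28.1%) were shorter than 1 kb, 546 (47.9%) had 1 to 10 kb, 166 (14.5%) had 10 to 40 kb and 108 (9.47%) had 40 kb or more. The last group made up 46.6% of the X in the series-wide list, and 49.7% and 52.2% in the replicate lists. On 2L the same share was 47.9% in the series-wide list, on 3L 43.6%, on 3R 43.1% and on 2R 36.0%. In the replicate lists 2L had 49.4% and 51.7%. The X and 2L thus had the largest shares of the 5 large arms, with 2L ahead in the series-wide list and X ahead, by less than the difference between replicates, in both replicate lists.

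**Figure D2:**
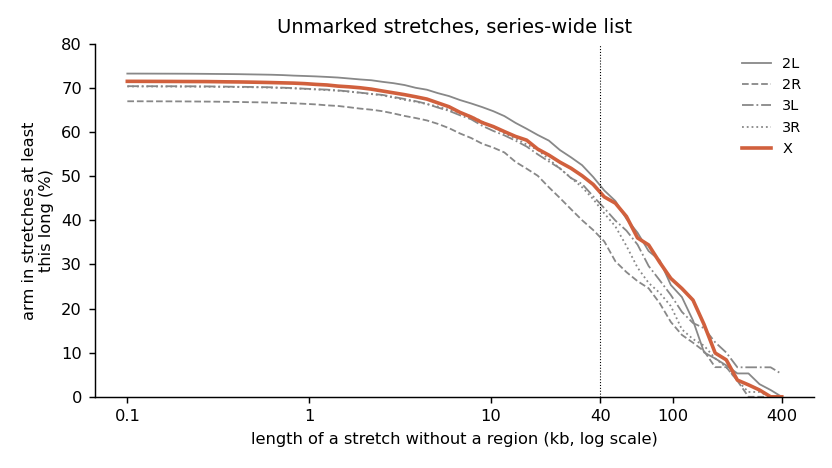
Percent of each arm that lies in stretches without an enriched region at least as long as the length on the x axis (kb, log scale), for X and the 4 autosomal arms in the series-wide list; the dotted line marks 40 kb. At that length the X has 46.6%, between 2L with 47.9% and 3L with 43.6%.

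The longest unmarked stretch of the X ran from 21501877 to 21845851 (344 kb), and 3 of the next 4 in length also lay past 20 Mb, from 20659563 to 20901001 (241 kb), from 21259613 to 21472111 (212 kb) and from 20938985 to 21147897 (209 kb). The second longest lay in the body of the arm, from 7237151 to 7500571 (263 kb), as did those ranked 6 to 10. They were 14163073 to 14366337 and 4599281 to 4802443 (203 kb each), 13893421 to 14094827 (201 kb), and 3065419 to 3239719 and 11923697 to 12097217 (174 kb each). In each replicate list at most 89 bases of any of these 10 stretches were called, all at their borders. Of the 108 stretches of 40 kb or more, 56 held no called base in either replicate list. Unmarked stretches of this length therefore occurred along the whole X, and 4 of the 5 longest lay past 20 Mb.

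The broadest X region follows the tenth longest stretch, of 174 kb, and the region of 43045 bp from 7500572 to 7543616 follows the second longest, of 263 kb. The stretches of 40 kb or more split the X regions into 109 groups with a median of 6 regions and a median span of 64.5 kb, inside which 53.4% of the sequence was marked. The 16 groups of 20 or more regions held 544 regions, or 47.7% of all on X. The group with most regions had 59, from 1724898 to 2364568, and the longest, with 54 regions, ran from 19037438 to 19678408. At the other end, 14 regions stood alone, with 40 kb or more of unmarked sequence on each side. Of these lone regions 11 (78.6%) were present in both replicates, beside 72.2% of all X regions. The median width of the 14 lone regions, 3011 bp, and their median score, 0.620, lay below the 3346 bp and 0.770 of the other X regions. Set against autosomal regions of like width, as defined below, their median score excess was 0.0753, beside 0.0605 for the other X regions. Their score was thus not lower for their width.

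The typical X region was a few kilobases wide. Median widths were 3197 bp in replicate 1, 3387 bp in replicate 2 and 3343 bp in the series-wide list, with the middle 50% of the series-wide regions between 1985 and 6259 bp. By width class, 293 of the 1140 regions (25.7%) were under 2 kb, 372 (32.6%) had 2 to 4 kb, 316 (27.7%) had 4 to 10 kb and 159 (13.9%) had 10 kb or more. On the autosomal arms 14.2% of the series-wide regions had 10 kb or more, and in the replicates 12.4% and 14.4%, against 12.1% and 14.2% on X. Broad regions were thus as frequent on X as elsewhere. The 159 broad X regions held 46.5% of the marked bases of the chromosome.

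The broadest X region extended over 69677 bp from 12097218 to 12166894. It was called in 5 pieces in replicate 1 and in 2 pieces in replicate 2, which covered 96.0% and 96.8% of it, and its largest pieces scored 1.68 and 1.63. The second, of 57587 bp from 19246668 to 19304254, was a single region of 57514 and 57511 bp in the replicates, with scores of 1.66 and 1.78. The third, of 54025 bp from 18859018 to 18913042, was called in 4 and 2 pieces. These regions are among the 20 broadest of the 5 large arms, with ranks 8, 15 and 20. The other 7 of the 10 broadest were 40939 to 46693 bp wide. In order of width they were 17356928 to 17403620, 580096 to 625934, 7090232 to 7134492, 11386466 to 11429994, 1855926 to 1898986, 7500572 to 7543616 and 2527208 to 2568146. Of the 10, replicate 1 called 5 as a single region and replicate 2 called 7 so. Whether a broad stretch appeared as 1 region or several therefore differed between the replicates, while at least 90.2% of each was covered in both.

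The 10 highest-scoring regions of the X were 4185 to 17663 bp wide. The first, from 1832278 to 1849940 (17663 bp), scored 2.99 in the series-wide list, 3.03 in replicate 1 and 2.94 in replicate 2, and ranked 4 among all series-wide regions of the 5 large arms. The second, from 11695418 to 11701332 (5915 bp), scored 2.79 and 2.71 in the replicates, and the third, from 19468414 to 19474690 (6277 bp), scored 2.84 and 2.65. The first was the highest X region in both replicate lists, whereas from rank 2 on neighbouring ranks differed by no more than the replicates did in some of these regions. The region ranked 4, from 10750842 to 10755388, had 2.73 and 2.74. That ranked 5, from 1371724 to 1378130, had 2.65 and 2.71. That ranked 6, from 6169584 to 6174020, had 2.78 and 2.65, above rank 5 in replicate 1 and below it in replicate 2.

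The remaining 4 were 6761764 to 6774340, 6634862 to 6639046, 5794210 to 5799598 and 11242654 to 11254550, with means of the replicates between 2.64 and 2.69. Each of the 10 was 1 unbroken region in both replicates, covered over at least 96.2% of its length in replicate 1 and 92.4% in replicate 2. None of them was among the 10 broadest. The 10 broadest regions scored 1.08 to 2.55 in the series-wide list, the highest of them being that from 1855926 to 1898986 (2.59 and 2.52 in the replicates). It follows the highest-scoring region of the X after an unmarked gap of 5985 bp, and both lie in the densest window. The lowest-scoring of the 10 broadest was the region beside the 263 kb unmarked stretch, with 1.25 and 1.17. Width and score rose together: over all X regions, which are not independent of each other, the rank correlation (Spearman's rho) was 0.803, 0.802 and 0.806 in replicate 1, replicate 2 and the series-wide list. On the autosomal arms it was 0.811, 0.808 and 0.816.

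**Figure D3:**
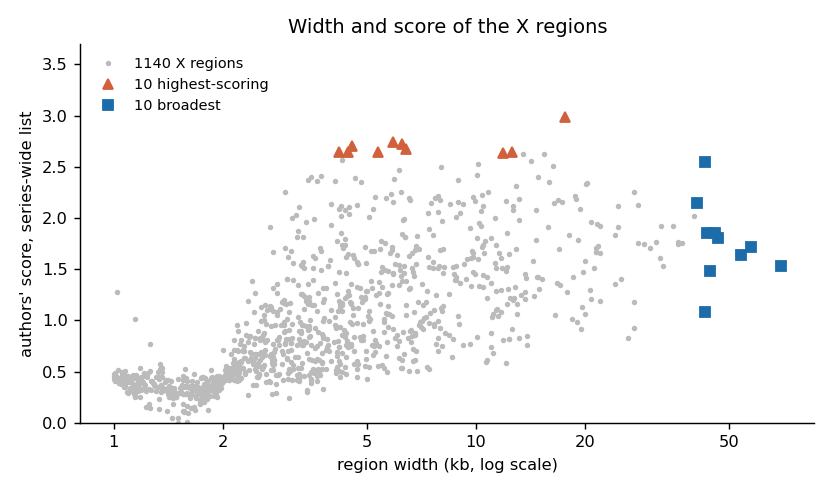
Width (kb, log scale) and authors' score of the 1140 X regions in the series-wide list, 1 point per region, with the 10 highest-scoring as triangles and the 10 broadest as squares. The triangles lie between 4185 and 17663 bp and the squares at 40939 bp or more, with no region in both groups.

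The median score was higher on X than on the pooled autosomal arms, by an amount that single autosomal arms also differed by. The median was 0.946 on X against 0.865 on the 4 autosomal arms in replicate 1 and 0.966 against 0.920 in replicate 2, a difference of 0.0633 ± 0.0252 (SD, n = 2). Against single arms X was higher by 0.0434 to 0.144 in replicate 1 and by 0.0204 to 0.0812 in replicate 2, while autosomal arms differed from each other by up to 0.101 and 0.0608. With regions weighted by width the mean difference was 0.0187, and against the highest-scoring autosomal arm 0.0319. At the 10th percentile X was higher by 0.0807 and 0.0892 in the replicates, at the lower quartile by 0.0861 and 0.107, at the upper quartile by 0.0342 and 0.0606, and at the 90th percentile by 0.0307 and 0.0662. The single highest score on the large arms was not on X in either replicate list. At the ends of the score range, X regions made up 18.9% and 18.7% of the regions on the large arms in the 2 replicates, but 8.16% and 7.75% of the lowest-scoring 5%, and 21.8% and 22.5% of the highest-scoring 5%.

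Because wider regions score higher, each region was also set against autosomal regions of its own width. Its width-matched excess is its score minus the median score of the 200 autosomal regions nearest to it in width. The median over X regions was 0.0788 in replicate 1 and 0.0838 in replicate 2, a mean of 0.0813 ± 0.00354 (SD, n = 2), and 0.0610 in the series-wide list. Among the top 50% of regions by score, a selection that uses the score itself, it turned to -0.00946. Each autosomal arm, set against the other 3 in the same way, lay close to 0: 2L at -0.00959 ± 0.00215, 2R at 0.00208 ± 0.00478, 3L at -0.00511 ± 0.00194 and 3R at 0.0124 ± 0.00225 (SD, n = 2). Set against single arms, X was higher by 0.0774 to 0.107 in replicate 1 and by 0.0838 to 0.106 in replicate 2, whereas the 12 comparisons of an autosomal arm with another ran from -0.0167 to 0.0376 and from -0.00827 to 0.0224. No pair of autosomal arms differed as much as X did from any of them in these lists. The spread of single regions was far larger than the shift: the middle 50% of the X regions lay between -0.0846 and 0.265 in replicate 1.

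Seen as counts, 64.8% of the X regions of replicate 1 and 64.6% of those of replicate 2 scored above the median of their autosomal width neighbours. On the autosomal arms against each other, the same shares were 50.0% and 50.2%, and in the series-wide list 64.7% of X regions stood above against 50.5%. On X, 846 regions of replicate 1 could be paired with 1 of replicate 2 that shared at least 50% of the length of each. Of these, 470 (55.6%) were above their width neighbours in both replicates and 204 (24.1%) below in both, against 42.4% above in both on the autosomal arms. Neighbouring regions of 1 chromosome are not independent, so these shares carry no test.

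By width, the excess over autosomal regions was largest in relation to the autosomal arms' own differences below 4 kb. Under 2 kb the matched excess of X was 0.0830, 0.0833 and 0.0573 in replicate 1, replicate 2 and the series-wide list, while no autosomal arm exceeded 0.0104. From 2 to 4 kb it was 0.0937, 0.0895 and 0.0668, while no autosomal arm exceeded 0.0209. From 4 to 10 kb it was 0.0721, 0.0965 and 0.0745; the highest autosomal arm had 0.0271, 0.110 and 0.0952, so in replicate 2 and the series-wide list X lay within the range of single arms. At 10 kb or more it was -0.000741, 0.0171 and 0.0209, within the range of single arms in all 3 lists. Under 2 kb, scores lay in a narrow band: the middle 50% of autosomal regions ran from 0.346 to 0.485 in replicate 1, and the X median was 0.508 against 0.423. In replicate 2 the X median for this width was 0.543 against 0.458, and 75.5% and 79.5% of the X regions of the replicates were above their width neighbours. From 2 to 4 kb the X median was 0.850 against 0.757 in replicate 1 and 0.876 against 0.778 in replicate 2. From 4 to 10 kb it was 1.34 against 1.29, and 1.40 against 1.30. At 10 kb or more it was 1.73 against 1.71 in replicate 1 and 1.68 against 1.69 in replicate 2, with middle ranges on X from 1.37 to 2.04 and from 1.40 to 2.04. Of these broad X regions 50.0% and 51.1% were above their width neighbours in the replicates, and 52.8% in the series-wide list. The difference in excess between width classes was not tested.

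**Figure D4:**
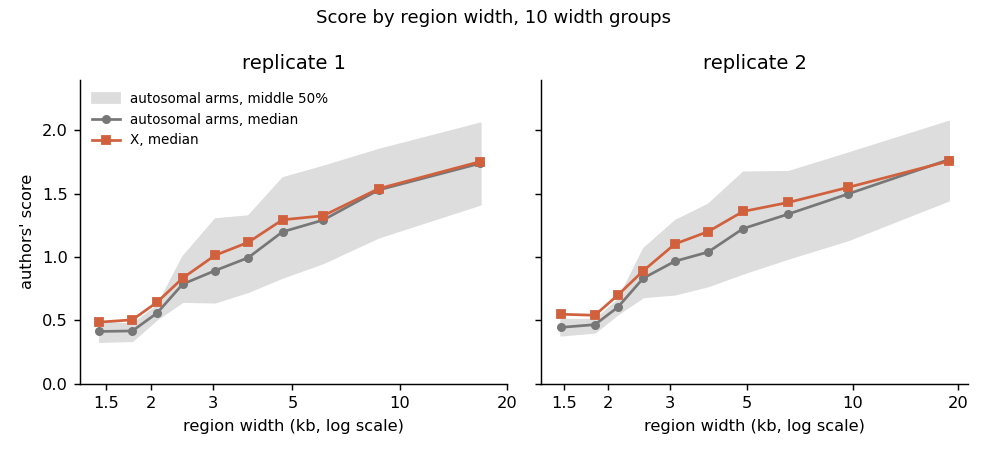
Median authors' score of X regions (squares) and of regions on the 4 autosomal arms (circles) in 10 width groups cut at the autosomal deciles, against width (kb, log scale), in each replicate; the grey area is the middle 50% of autosomal regions. X lies higher in 10 of 10 groups in replicate 1 and in 9 of 10 in replicate 2, and in the widest group X minus autosomal arms is 0.0141 and -0.0111.

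Along the chromosome, the plain score excess did not hold everywhere. In 22 full bins of 1 Mb, the median score of X regions was above the autosomal median in 15 bins in replicate 1, in 14 in replicate 2 and in 11 in both. Of the autosomal bins 38.7% were above the other 3 arms in both replicates, with 50.0% on 2R and 48.1% on 3R, so the 50.0% of X bins was no higher than on 2R. In 4 X bins the score was below in both replicates: from 2 to 3 Mb, from 5 to 6 Mb, from 14 to 15 Mb and from 19 to 20 Mb. The highest median scores lay from 6 to 7 Mb (1.28 and 1.24 in the replicates), from 1 to 2 Mb (1.26 and 1.21) and from 21 to 22 Mb (1.20 and 1.16). The lowest lay from 5 to 6 Mb (0.694 and 0.768), from 12 to 13 Mb (0.726 and 0.968) and from 14 to 15 Mb (0.814 and 0.886). The bins with the highest and the lowest score are therefore neighbours, at 5 to 7 Mb. The bin from 21 to 22 Mb combined high scores with a coverage of 9.17% and 9.46%, on 20 and 23 regions.

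At matched width the excess held in every 1 Mb bin of the X. All 22 bins were above 0 in replicate 1, in replicate 2 and in the series-wide list, while 44.1% of the autosomal bins were above 0 in both replicates. The longest run of such autosomal bins was 6, on 2R, against 22 on X. The X bins ran from 0.0115 to 0.190 over both replicates, and the autosomal bins from -0.160 to 0.207. The largest values lay from 1 to 2 Mb (0.174 and 0.190) and from 6 to 7 Mb (0.184 and 0.123), and the smallest from 3 to 4 Mb (0.0115 and 0.0177) and, in replicate 2, from 4 to 5 Mb (0.0811 and 0.0127). The bins from 5 to 6 Mb and from 14 to 15 Mb, which were low in plain score, had 0.0494 and 0.0887, and 0.0774 and 0.0711, at matched width. With each autosomal arm alone as the reference, the count was again 22 of 22 for 2L, 2R, 3L and 3R. The excess was also present in each section of 5 Mb, at 0.0891 and 0.0872 in the first 5 Mb, 0.0834 and 0.0861 from 5 to 10 Mb, 0.0767 and 0.0766 from 10 to 15 Mb and 0.0680 and 0.0919 from 15 to 20 Mb. Past 20 Mb it was 0.050 and 0.0443, on 50 and 52 regions.

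**Figure D5:**
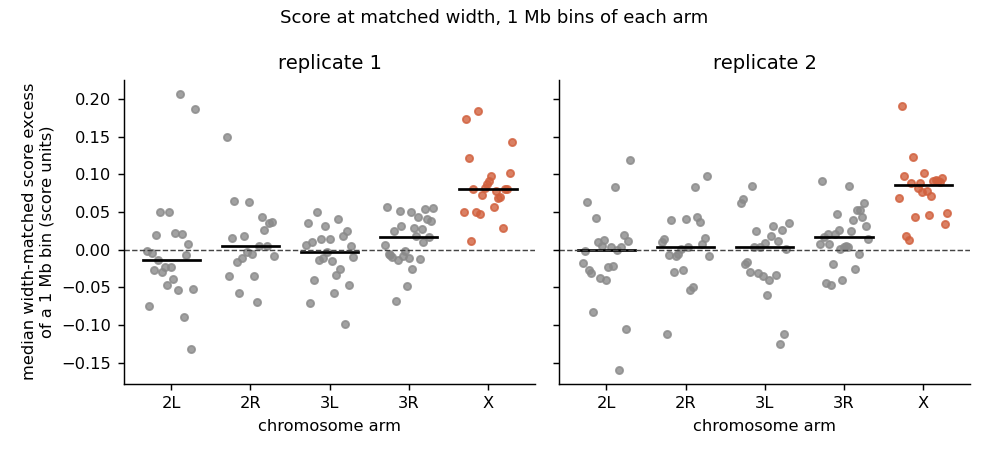
Median width-matched score excess of each full 1 Mb bin with at least 10 regions, by chromosome arm and replicate, in score units; X is set against the 4 autosomal arms and each autosomal arm against the other 3, black bars are medians over bins and the dashed line is 0. The 22 X bins lie above 0 in both replicates, between 0.0115 and 0.190, while the bins of the autosomal arms scatter on both sides of it.

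In bins of 500 kb the pattern loosened. Of 42 X bins with at least 10 regions in each replicate, 35 (83.3%) were above 0 in both, against 39.5% of 177 autosomal bins. The 7 exceptions were scattered from 3.5 to 19.5 Mb. In 1 of them, from 9.5 to 10 Mb, both replicates were below 0, at -0.0371 and -0.00300. The strongest disagreement was from 18 to 18.5 Mb, with 0.0485 in replicate 1 and -0.113 in replicate 2.

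The replicates marked largely the same places on X. Of the series-wide X regions, 823 of 1140 (72.2%, 95% Wilson interval 69.5 to 74.7%) lay over at least 50% of their length inside regions of both replicates, against 73.6% on the autosomal arms and 73.2% of all regions; the interval covers counting error only. By width class the share on X was 19.8% under 2 kb, 82.3% from 2 to 4 kb, 95.3% from 4 to 10 kb and 99.4% at 10 kb or more, against 18.8%, 86.3%, 96.6% and 99.9% on the autosomal arms. The lists differ in their narrowest region, 1301 bp in each replicate list and 1001 bp in the series-wide list, on X and on the autosomal arms. A narrower series-wide region could thus be found in a replicate only by overlapping a wider region there. The share under 2 kb, and with it the 72.2%, includes such regions and is no plain measure of agreement between replicates. From 2 to 4 kb the autosomal share lay just above the interval of the X share, 78.1 to 85.8%, and in each other class it lay inside. These intervals treat regions as independent, which neighbouring regions are not, so no difference was concluded. Of all X regions, 125 (11.0%) were found in replicate 1 alone, 43 (3.77%) in replicate 2 alone and 149 (13.1%) in neither, against 11.7%, 2.55% and 12.1% on the autosomal arms. Regions found in neither were narrow (median 1217 bp) and low in score (median 0.385). That median width lies below the narrowest region of either replicate list. At matched width their median excess was 0.0658, beside 0.0732 for those found in both replicates, 0.0332 for those in replicate 1 alone and -0.00878 for those in replicate 2 alone. In the same order, the autosomal arms had 0.0063, 0.0164, -0.0299 and -0.0458, so X was higher in each group.

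On X, 121 regions of replicate 1 (10.9%) and 35 of replicate 2 (3.63%) shared no base with the other replicate, against 12.2% and 3.19% on the autosomal arms, with median widths of 1668 and 1479 bp. Their median scores were 0.560 and 0.567, against 0.453 and 0.479 for the unshared regions of the autosomal arms, whose median widths were 1578 and 1536 bp. Their median excess at matched width was 0.10 and 0.0839, against 0.00287 and 0.00696 for the unshared autosomal regions. Among the widest of those on X, named next, all 5 of replicate 1 had a negative matched excess, from -0.321 to -0.161. The 3 widest of replicate 2 were negative too. Unshared autosomal regions of such widths were not set beside them, so whether X differs there was not tested. The 5 widest unshared X regions of replicate 1 were 15613652 to 15617315 (3664 bp, score 0.722), 12400542 to 12403981, 774629 to 777877, 19343068 to 19346064 and 1517656 to 1520507. The 5 widest in replicate 2 were 78900 to 81658 (2759 bp, score 0.581), 17479767 to 17482075, 17024107 to 17026397, 12646261 to 12648352 and 19139352 to 19141338. The series-wide list held 66.3% or more of the length of each of these 10. In the series-wide list alone, the 5 widest were 14122410 to 14125214 (2805 bp, score 0.466), 16473994 to 16476730, 4844472 to 4846626, 10546178 to 10548098 and 20648402 to 20650286. Each of these 15 places rests on 1 replicate or on the series-wide list alone.

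Where both replicates called a region, their scores followed each other on X as on the other arms. The 846 pairs, which are not independent, had a Pearson's r of 0.965 and a Spearman's rho of 0.956. The median difference, replicate 2 minus replicate 1, was -0.0274, and 357 pairs (42.2%) were higher in replicate 2. The autosomal pairs had a median difference of -0.0389, with 38.1% higher in replicate 2.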

How the data were processed

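Embryos up to 16 h old were fixed in 1.8% formaldehyde and chromatin was collected with an antibody to H3K79me3, per the labels' protocols. The submitters' processing notes name Bowtie 0.12.7. Per the file headers, positions follow FlyBase r5. Not given in the sources used here: which program called the regions, at what threshold, how inputs entered, and if reads were pooled for the series-wide list. The authors deposited 3 lists that give each region a first base, a last base and a score, whose scale no header or label states; the values of the inputs were not used here. Depth per sample is unknown, as the lists give no counts.

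Regions called enriched were taken by chromosome. Coverage was computed from merged regions over the arm lengths in the file headers. Bins assign a region by its midpoint and need at least 10 regions in each replicate for a median. The width-matched excess used the 200 reference regions nearest in log width. A region was found in a replicate when at least 50% of its length was covered. The width-matched excess was tested on simulated scores with known shifts, with a tolerance not much smaller than the X excess itself. Covered and uncovered bases were tested on simulated intervals. The other computations were not tested in this way. The members, lists and comparisons were chosen with earlier results of these data known. Regions named are the 10 highest-scoring, the 10 broadest, the 10 longest stretches between regions, the 5 fullest and 5 emptiest windows, the 3 bins highest and 3 lowest in score, and the 5 widest regions of a single list, which for a replicate means no base in the other replicate and for the series-wide list no base in either; any other region or bin named was picked after its values were seen. Genes and sequences are not reported, because no genome or annotation of this build was used here. Python 3.11.15 with numpy 2.4.6, pandas 2.3.3, scipy 1.17.1 and matplotlib 3.10.9 was used.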

Additional observations from a re-analysis of the deposited data

How the results depend on the processing

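No paired analysis was possible because the inputs that share replicate numbers with the ChIP samples gave no values here, and no test was run across samples. Leaving out a replicate leaves 1 sample and no spread: X coverage then ran from 24.7% to 25.8%, its ratio to the autosomal arms from 0.943 to 0.952, the score excess from 0.0454 to 0.0811, the excess at matched width from 0.0788 to 0.0838, the 1 Mb bins above the autosomal median from 14 to 15 and the stretches of 40 kb or more from 114 to 119. Coverage of 25.2% became 28.5% in the series-wide list, 19.9% with the top 50% of regions by score and 26.1% without the first and last 1 Mb of each arm. The coverage ratio of 0.947 became 0.960, 0.982 and 0.963 under the same settings and 0.997 as regions per Mb. The score excess of 0.0633 fell to 0.0187 when regions were weighted by width and to 0.0319 against the highest-scoring autosomal arm. At matched width it was 0.0610 in the series-wide list and 0.0764 without the bins from 1 to 2 Mb and from 6 to 7 Mb. It was above 0 under 10 of 11 alternatives and reversed to -0.00946 among the top 50% of regions by score, a selection that uses the score itself. The 11 bins of plain score above the autosomal arms in both replicates became 25 of 42 in bins of 500 kb, 6 of 11 in bins of 2 Mb, 22 at matched width and 35 of 42 at matched width in bins of 500 kb. The share of X regions found in both replicates, 72.2%, was 75.2% with an overlap of 1 base, 56.8% with 80% and 99.2% among the top 50% by score. These 3 shares have no autosomal share beside them, so they show the effect of the setting and nothing particular to X. Chosen after seeing the data were the top 50%, the bins left out, the trimmed ends, the X without its part past 20 Mb, the overlapped regions and the single reference arm, all at matched width, the bins of 500 kb and 2 Mb at matched width, and the replicate means of the 10 highest regions, of which 2 moved by more than their SD. Apart from the settings whose construction is stated, the cause of these changes was not tested. Without read counts, how depth limits the narrow regions could not be examined. Narrow regions are also limited by the lists themselves, as the narrowest X region had 1301 bp in each replicate list and 1001 bp in the series-wide list.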

Other observations

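Regions called depleted were rare in all 3 lists, with 2 in replicate 1, 0 in replicate 2 and 7 in the series-wide list over all chromosomes. On X lay 2 of the 7, and none of those in the replicate lists. They lay from 10158166 to 10159708 (1543 bp, score -0.0429) and from 19169910 to 19171374 (1465 bp, score -0.0726). No enriched region of either replicate touched them, and the nearest series-wide enriched region was 19686 and 5646 bases away.

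XHet, the separate sequence of unplaced X heterochromatin in this build, has 204 kb. It held 3 enriched regions in replicate 1, 2 in replicate 2 and 3 in the series-wide list, covering 2.95%, 1.76% and 2.93% of its length. They were 1718 to 2136 bp wide over the 3 lists, and the scores were 0.533 to 0.744 in replicate 1 and 0.390 to 0.391 in replicate 2. In the final partial bin of the X arm, at its centromere-proximal end, 7 and 9 regions of the replicates held 6.59% and 7.33% of the bases.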
